A study of Mus musculus with 8 samples.

Results

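A set of 6 genes of lipid and vascular biology was read across 8 mouse kidney libraries: the angiopoietin-like genes Angptl7, Angptl2, Angptl4 and Angptl6, lipoprotein lipase (Lpl) and Gpihbp1, the protein that anchors the lipase in capillaries. They were picked by gene symbol from the deposited table of dKO against WT kidneys, in which they are 6 of 26893 genes. The genes were picked with that contrast known, so their dKO against WT values are a description, and where the fit across all genes called them is stated once without support being drawn from it. All 6 were among the 15912 genes that passed the filter on low counts. Angptl7 and Lpl lay lower in every dKO library than in any WT library, Angptl2 lay slightly higher, and the groups overlapped for Angptl4, Angptl6 and Gpihbp1.

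The table held poly(A) RNA of whole kidneys at 45 days of age, from 4 WT libraries (C57BL/ 6) and 4 dKO libraries (Tsc1f/f/Aqp2 Cre/Foxi1 knockout). In the dKO mice Cre is driven by Aqp2, the water channel gene of principal cells of the collecting duct, so the Tsc1 deletion is directed to those cells, and the study obtained these mice by crossing Tsc1-KO with Foxi1-KO animals. The comparison asks how the kidney transcriptome differs once Foxi1, the transcription factor needed by intercalated cells, is lost together with Tsc1. The genotype label of the WT libraries names the strain C57BL/ 6, whereas that of the dKO libraries names no strain background. Any difference of background between the groups therefore cannot be told apart from the knockouts. Single-knockout samples were not analysed here.

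Lipoprotein lipase is made by parenchymal cells, moves to the capillary surface on the endothelial protein GPIHBP1, and there splits the triglyceride of circulating lipoproteins into fatty acids that the tissue takes up. ANGPTL4 inactivates the lipase, whereas ANGPTL2, ANGPTL6 and ANGPTL7 are secreted relatives with a fibrinogen-like domain that are best known from inflammation, from metabolism and vessel growth, and from the matrix of the eye. In the kidney, tubule cells burn fatty acids for much of their energy.

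The sequence upstream of the start of Angptl7, the gene with the largest difference of the 6, is shown beside that of Angptl2, a gene of the same family whose level was not lower in dKO. Both are the 250 bases before the RefSeq start on GRCm38.p6, 5′ to 3′ on the strand of the gene, and RefSeq promoter entries were matched by symbol for 3 of the 6 genes (Angptl7, Angptl2 and Angptl6). Capitals mark the letters ACAAACA, a form of the core that forkhead factors such as FOXI1 recognise.
Angptl7, chr4:148500463-148500712, minus strand: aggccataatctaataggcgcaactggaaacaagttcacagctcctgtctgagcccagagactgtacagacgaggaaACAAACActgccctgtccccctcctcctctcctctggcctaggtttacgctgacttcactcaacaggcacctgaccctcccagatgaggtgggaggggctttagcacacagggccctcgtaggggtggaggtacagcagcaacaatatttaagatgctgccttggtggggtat
Angptl2, chr2:33215711-33215960, plus strand: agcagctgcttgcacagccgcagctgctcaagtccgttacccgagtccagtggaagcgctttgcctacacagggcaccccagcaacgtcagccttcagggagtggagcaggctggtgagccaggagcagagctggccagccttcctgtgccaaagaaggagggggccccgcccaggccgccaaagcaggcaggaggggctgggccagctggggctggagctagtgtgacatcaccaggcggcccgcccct

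The Angptl7 window was 54.4% G and C and the Angptl2 window 66.8%. The forkhead form GTAAACA, the form GCAAACA, the form ATAAACA and the form ACAAACA were searched on both strands, a set that was extended after the Angptl7 sequence had been read. Angptl7 held 1 match, ACAAACA, whose first base lies at -173 from the start, and neither Angptl2 nor Angptl6 held any. Of 32851 RefSeq promoter windows of the same length, 5.84% held ACAAACA and 15.7% held any of the 4 forms, and the match describes letters and not a bound site. None of the 3 windows held the E-box CACGTG, the nuclear-receptor half-site AGGTCA or the TATA-box letters TATAAA.

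The libraries held 14791687 to 24973213 counted reads, and levels are given as CPM, the reads of a gene relative to the library size after TMM scaling, on which 3 reads in a library are worth 0.121 to 0.207 CPM. The labels do not say that each library came from its own animal, so SDs, standard errors and p-values measure the spread between these libraries. Foxi1 read 26.6 to 33.6 CPM in WT and 1.33, 1.56 and 1.41 CPM in dKO replicates 1, 2 and 3, but 45.9 CPM in the library labelled dKO replicate 4, which goes against its label. In these whole kidneys Tsc1 averaged 51.3 ± 9.82 CPM for WT and 52.4 ± 6.42 CPM for dKO (SD, n = 4 each). The library dKO replicate 1 read Xist at 490.4 CPM with no reads of the Y-linked genes Ddx3y and Eif2s3y, the pattern of a female. In every other library Xist was at most 0.635 CPM and Ddx3y read 47.6 to 66.1 CPM, the pattern of a male. Sex is not labelled, and its part in the levels of dKO replicate 1 was not tested. Results that rest on dKO replicate 1 or 4 are therefore also given without replicate 1, without the library labelled replicate 4 and without both.

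Angptl7 (ENSMUSG00000028989, chromosome 4, 148495183 to 148500460, minus strand) encodes a secreted protein known from the cornea and the trabecular meshwork of the eye. It read 703.6, 779.6, 355.5 and 428.0 CPM in WT replicates 1 to 4, and 7.12, 8.43, 19.4 and 23.3 CPM in dKO replicates 1 to 4. The lowest WT library was 15.2-fold above the highest dKO library, and the means were 567 ± 206 CPM for WT and 14.6 ± 8.03 CPM for dKO (SD, n = 4 each), a ratio of 38.9. The log2 fold change, dKO over WT, was -5.28 (SE 0.51). Both groups were spread out: the highest library was 2.19-fold above the lowest in WT, where replicates 3 and 4 were low, and 3.28-fold above it in dKO, where replicates 3 and 4 were high. These values rest on 5145 to 14575 reads per WT library and 146 to 482 reads per dKO library. The library labelled dKO replicate 4, which kept Foxi1 and the intercalated-cell receptor Kit (25.6 CPM), had Angptl7 at 23.3 CPM, the highest of the dKO group and below every WT library. The log2 fold change was -5.05 (SE 0.52) without dKO replicate 1, -5.59 (SE 0.53) without the library labelled replicate 4, and -5.32 (SE 0.63) without both. In whole-kidney RNA, fewer cells that make a transcript and less of it per cell cannot be told apart, for this gene and for those that follow.

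Angptl2 (ENSMUSG00000004105, chromosome 2, 33216069 to 33247717, plus strand), a secreted protein studied in inflammation of fat and vessels, lay on the other side. WT replicates 1 to 4 read 42.2, 43.4, 35.7 and 44.9 CPM and dKO replicates 1 to 4 read 63.9, 46.3, 51.3 and 53.6 CPM. The groups did not overlap, but the gap was narrow: the lowest dKO library was 1.03-fold above the highest WT library. Means were 41.5 ± 4.07 CPM in WT and 53.8 ± 7.41 CPM in dKO (SD, n = 4 each), and the log2 fold change was 0.37 (SE 0.11). It was 0.28 (SE 0.10) without dKO replicate 1, the highest library, 0.38 (SE 0.13) without the library labelled replicate 4, and 0.23 (SE 0.11) without both.

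Angptl6 (ENSMUSG00000038742, chromosome 9, 20873808 to 20879727, minus strand), a secreted regulator of vessel growth and energy use in mice, had few reads. Its level was 0.891, 1.18, 0.691 and 0.624 CPM in WT replicates 1 to 4, and 1.33, 0.751, 1.37 and 1.38 CPM in dKO replicates 1 to 4. Of the dKO libraries, 3 were above every WT library and replicate 2 was within the WT range, so the groups overlapped. The counts behind these values were 10 to 22 reads in WT and 13 to 34 reads in dKO, and the log2 fold change was 0.51 (SE 0.31). It was 0.46 without dKO replicate 1, 0.45 without the library labelled replicate 4 and 0.34 without both.

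Lpl (ENSMUSG00000015568, chromosome 8, 68880491 to 68907448, plus strand) encodes the lipase itself. WT replicates 1 to 4 read 1175, 1493, 1639 and 1563 CPM, and dKO replicates 1 to 4 read 276, 661, 585 and 583 CPM. The lowest WT library was 1.78-fold above the highest dKO library, with 3 dKO libraries close together and replicate 1 well below them. Means were 1467 ± 204 CPM for WT and 526 ± 171 CPM for dKO (SD, n = 4 each), a ratio of 2.79, and the log2 fold change was -1.48 (SE 0.24). Without dKO replicate 1 it was -1.27 (SE 0.12), without the library labelled replicate 4 it was -1.53 (SE 0.28), and without replicates 1 and 4 it was -1.23 (SE 0.14). In the library labelled dKO replicate 4, with Foxi1 above every WT library, Lpl was at 583 CPM, level with replicate 3.

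Gpihbp1 (ENSMUSG00000022579, chromosome 15, 75596628 to 75599481, plus strand) encodes the endothelial protein that carries the lipase to the capillary surface. It read 10.7, 17.3, 14.5 and 14.8 CPM in WT replicates 1 to 4, and 5.93, 12.1, 12 and 8.48 CPM in dKO replicates 1 to 4. WT replicate 1 lay inside the dKO range, so the groups overlapped, with a log2 fold change of -0.57 (SE 0.23) that was -0.40 (SE 0.18) without dKO replicate 1, -0.52 (SE 0.26) without the library labelled replicate 4 and -0.24 (SE 0.18) without both. The 9 endothelial markers read beside it, Pecam1, Cdh5, Kdr and others, summed to 626 to 765 CPM in WT. In dKO replicates 1 to 4 they summed to 1027, 673, 835 and 715 CPM. None of those 9 passed the threshold in either direction, and all 9 had a positive log2 fold change.

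Angptl4 (ENSMUSG00000002289, chromosome 17, 33773750 to 33781575, minus strand) encodes the fasting-induced inhibitor of the lipase. It read 71.4, 59.5, 42.5 and 60.5 CPM in WT replicates 1 to 4, and 21.4, 62.6, 34.0 and 47.4 CPM in dKO replicates 1 to 4. dKO replicate 2 was above 3 of the 4 WT libraries while dKO replicate 1 was at the bottom of all 8, and the log2 fold change was -0.50 (SE 0.31). Without dKO replicate 1 it was -0.29 (SE 0.23), without the library labelled replicate 4 it was -0.58 (SE 0.35), and without both it was -0.28 (SE 0.28).

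**Figure D1:**
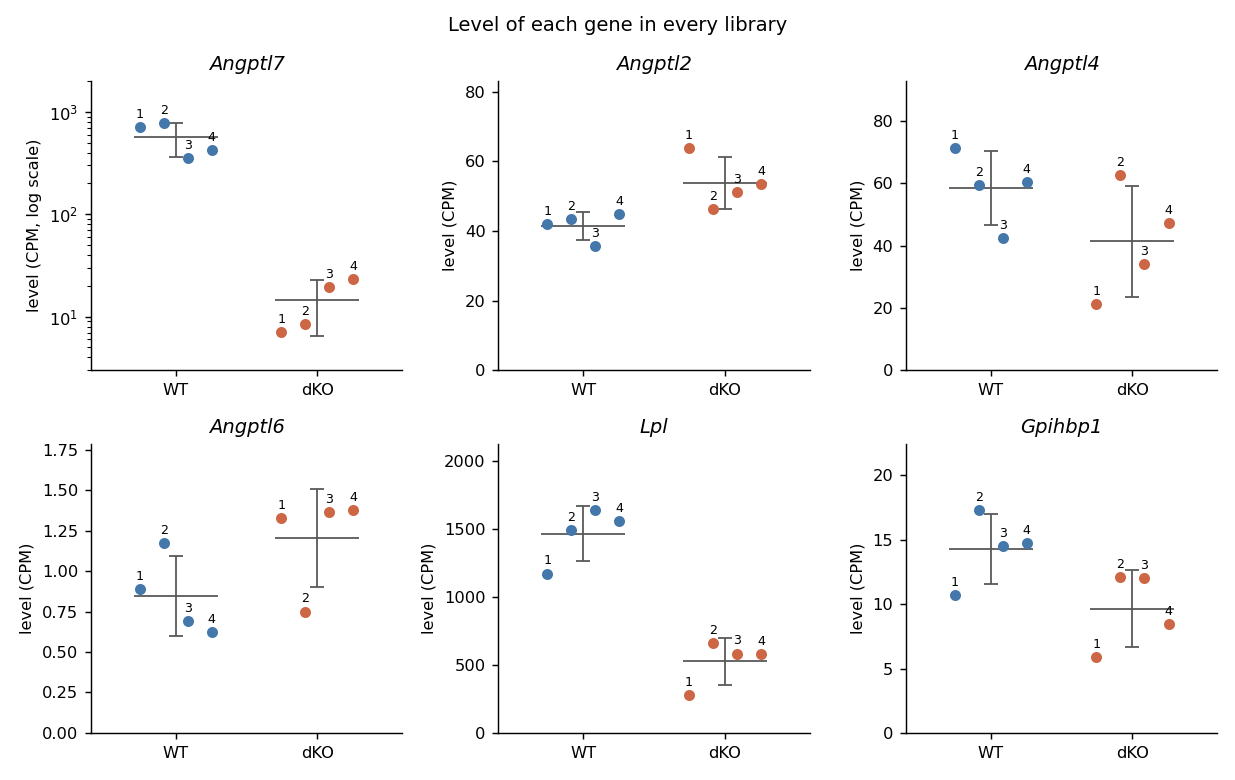
Level of each of the 6 genes in CPM (Angptl7 on a log scale, the others from 0) in WT and dKO, with a point for each library numbered by its replicate and a bar for the mean ± SD (n = 4). The groups stand apart for Angptl7 and Lpl and, narrowly, for Angptl2, and dKO replicate 1 is the lowest of all 8 libraries for 4 of the 6 genes.

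Among the 6 genes, 2 were past the threshold in the direction of lower dKO (Angptl7 and Lpl) and 0 in the other, where 1.12% and 1.16% of all tested genes were past it (edgeR's quasi-likelihood test, Benjamini-Hochberg adjusted p under 0.05). Either way, 2.28% of tested genes were past it. Angptl7 and Lpl, and none of the other 4, were also past it without dKO replicate 1, without replicate 4 and without both, where 2.02%, 1.14% and 1.76% of the genes tested were called lower and 1.88%, 0.969% and 1.42% higher. For Lpl the call was lost on leaving out WT replicate 2, 3 or 4 in turn, where fewer of all genes were called, while its log2 fold change stayed between -1.47 and -1.42. Counted by overlap, 2 genes lay lower without overlap and 1 higher, against 6.06% of all tested genes in each direction and 12.1% in either. Since the genes were chosen with this contrast known, nothing is read from these counts. The library dKO replicate 1 was the lowest of all 8 for Angptl7, Angptl4, Lpl and Gpihbp1 and the highest for Angptl2.

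**Figure D2:**
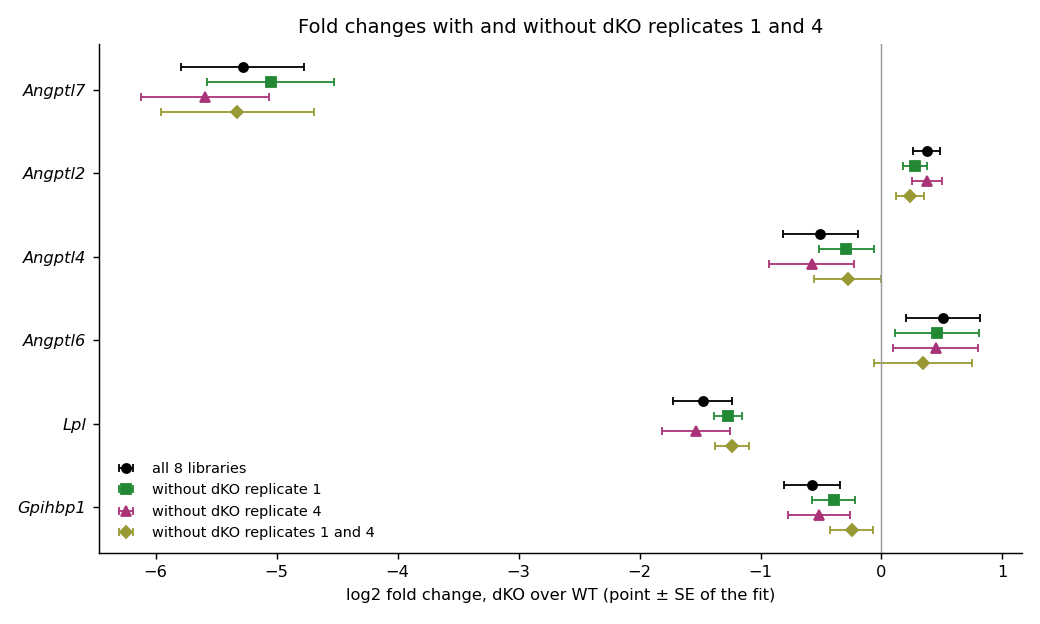
Log2 fold change of dKO over WT for each gene (point ± SE of the fit) with all 8 libraries and without dKO replicate 1, replicate 4 or both. Angptl7 stays between -5.59 and -5.05 and Lpl between -1.53 and -1.23, while Gpihbp1 moves from -0.57 to -0.24 once both are left out.

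Levels of different genes were compared per gene length, with the deposited FPKM. In WT kidneys Angptl7 was first with 262 ± 95.8 FPKM, rank 131 of 17194 protein-coding genes by mean FPKM, and Lpl followed with 140 ± 19.7 FPKM, rank 303 (SD, n = 4 each). The ranges of the 2 genes did not overlap, since the lowest Angptl7 library (164.8 FPKM) was above the highest Lpl library (156 FPKM). Angptl4 was next at 17.8 FPKM, Angptl2 at 6.60 and Gpihbp1 at 5.60 FPKM overlapped each other, and Angptl6 was last of the 6 at 0.534 FPKM. In dKO the order changed at the top: Lpl led with 50.0 FPKM (rank 922), Angptl4 (12.5), Angptl2 (8.51), Angptl7 (6.72) and Gpihbp1 (3.75 FPKM) followed with each range overlapping the next, and Angptl6 stayed last at 0.758 FPKM. Angptl7 moved to rank 5826 of the 17194. Within single libraries Angptl7 was 1.05 to 2.91 times the FPKM of Lpl in WT and 0.0620 to 0.194 times in dKO. The lipase stood 21.1 to 27.5 times above its anchor Gpihbp1 in WT and 11.4 to 16.8 times above it in dKO, ranges that did not overlap. Against its inhibitor Angptl4 it stood 5.16 to 12.1 times above in WT and 3.31 to 5.39 times above in dKO, where the highest dKO library was inside the WT range. Since these genes were chosen with the contrast known, nothing is read from how the ratios differ between the groups. The order of the 6 genes was the same with CPM divided by gene length, and without dKO replicates 1 and 4.

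**Figure D3:**
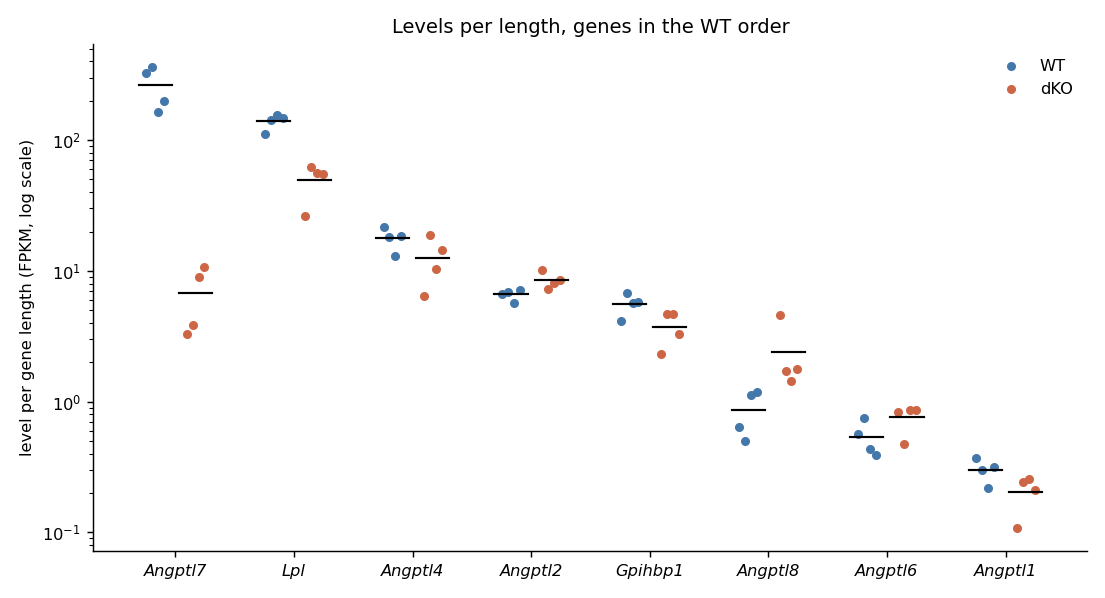
Level per gene length (deposited FPKM, log scale) of the 6 genes and of Angptl1 and Angptl8, with a point for each library and a line for the mean of the group (n = 4), in the order of the WT means. Angptl7 goes from the top of the WT order at 262 FPKM to the middle of the dKO order at 6.72 FPKM, and Angptl8 lies higher in dKO.

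Outside the 6, Angptl8 and Angptl1 were low in these kidneys. Angptl8, a secreted relative that takes part in inhibiting the lipase after feeding, read 0.557, 0.428, 0.967 and 1.02 CPM in WT replicates 1 to 4, and 3.98, 1.5, 1.25 and 1.54 CPM in dKO replicates 1 to 4. Every dKO library was above every WT library, and replicate 1 was far above the others, without passing the threshold (log2 fold change 1.49, SE 0.45, edgeR adjusted p = 0.127). Without replicate 1 the log2 fold change was 0.95 (SE 0.35, edgeR adjusted p = 0.194), and without replicates 1 and 4 it was 0.89 (SE 0.41, edgeR adjusted p = 0.399). Angptl1, a secreted relative studied in vessels, read 0.622 to 1.06 CPM in WT and 0.310 to 0.725 CPM in dKO (-0.57, SE 0.34, edgeR adjusted p = 0.443).

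The angiopoietins proper and their receptors stayed under the threshold as a list, with 0 of 4 tested genes past it in either direction. Angpt1, the ligand that steadies vessels through TIE2, read 10.1 to 11.8 CPM in WT and 11.9 to 20.3 CPM in dKO (log2 fold change 0.55, SE 0.15, edgeR adjusted p = 0.103), and passed without the library labelled dKO replicate 4 (0.67, edgeR adjusted p = 0.0324) and without replicates 1 and 4 (0.54, edgeR adjusted p = 0.0453). Angpt2, its context-dependent antagonist, had a log2 fold change of 0.22 (edgeR adjusted p = 0.478). Tek, which encodes TIE2, and its co-receptor Tie1 each had 0.17 (edgeR adjusted p = 0.756 and 0.567). Angpt4 was under the filter on low counts at 0.220 to 0.885 CPM.

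Around these genes, 10 lists of lipase, lipoprotein and fatty-acid genes and of the pathways that control Angptl4 were read. Of 92 tested genes, 4 were higher in dKO and 0 lower, where 1.16% and 1.12% of all genes were called. A positive log2 fold change was found for 63 of the 92, beside 8225 of 15912 over all tested genes. The median log2 fold change over the 92 was 0.15, beside 0.01 over all tested genes. Without dKO replicate 1, 7 were higher and 1 lower, without the library labelled replicate 4, 5 were higher and 0 lower, and without both, 9 were higher and 1 lower. In these settings, in the same order, 1.88%, 0.969% and 1.42% of all tested genes were called higher and 2.02%, 1.14% and 1.76% lower. Apoe and the protease Pcsk6 were among those added without replicate 1, and the lower gene was Fkbp5 there and Per1 without both, each a glucocorticoid-response gene. Acsl3, which activates fatty acids with coenzyme A, rose from 20.7 to 26.3 CPM in WT to 29.4 to 34.0 CPM in dKO (0.47, SE 0.10, edgeR adjusted p = 0.0354). Acaa1b, a thiolase of peroxisomal fatty-acid oxidation and a PPAR alpha target, rose from 149 to 247 CPM to 272 to 537 CPM (1.13, SE 0.23, edgeR adjusted p = 0.0355). Pdk1, a hypoxia-response gene whose product switches off pyruvate dehydrogenase, rose from 12.4 to 17.6 CPM to 44.4 to 70.7 CPM (1.71, SE 0.17, edgeR adjusted p = 0.000849). For these genes the groups did not overlap. The Pdk1 call held in all 17 alternative settings. The Acsl3 call held in 10 of 17 and was lost without WT replicate 2, 3 or 4, without dKO replicate 2 or 3 and on the FPKM scale (adjusted p up to 0.124). The Acaa1b call held in 8 of 17 and was lost without those same libraries, without the library labelled dKO replicate 4 (edgeR adjusted p = 0.0522), with no filter on low counts and on the FPKM scale (adjusted p up to 0.119), but held without replicates 1 and 4 together (edgeR adjusted p = 0.00297). Both kept a positive log2 fold change in all 17.

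By list, 2 of 16 tested lipoprotein receptor and fatty-acid uptake genes were higher (median log2 fold change 0.25), 1 of 19 PPAR receptors and targets (0.12) and 1 of 11 hypoxia-response genes (0.13). Of 9 glucocorticoid-response genes, a pathway that induces Angptl4, none passed (median -0.06; Klf9 had -0.22 and Sgk1 0.29). None of 12 genes of lipase folding, trafficking, anchoring and cleavage passed (median 0.13), among them Lmf1, the factor without which the lipase does not fold, at 32.0 to 34.9 CPM in WT and 30.6 to 35.6 CPM in dKO. Furin, a protease that cleaves ANGPTL4 and the lipase, had -0.15, and the heparan sulfate carrier Sdc4 had 0.23. None of 6 other lipases passed (median 0.42; lysosomal Lipa 0.26, adipose triglyceride lipase Pnpla2 -0.21). None of 6 apolipoproteins passed, with Apoe, the ligand of remnant uptake, at 0.97 (edgeR adjusted p = 0.0841) and Apoc3, an inhibitor of the lipase, at -0.60. None of the 6 receptors and integrins that bind angiopoietin-like proteins passed (median 0.21; Itgb1 -0.07, Itgav -0.29). Cd36, the fatty-acid translocase, was singled out after its values were seen: it read 725 to 833 CPM in WT, 77.6 CPM in dKO replicate 1 and 694, 517 and 553 CPM in dKO replicates 2 to 4 (-0.72, SE 0.55, edgeR adjusted p = 0.575).

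**Figure D4:**
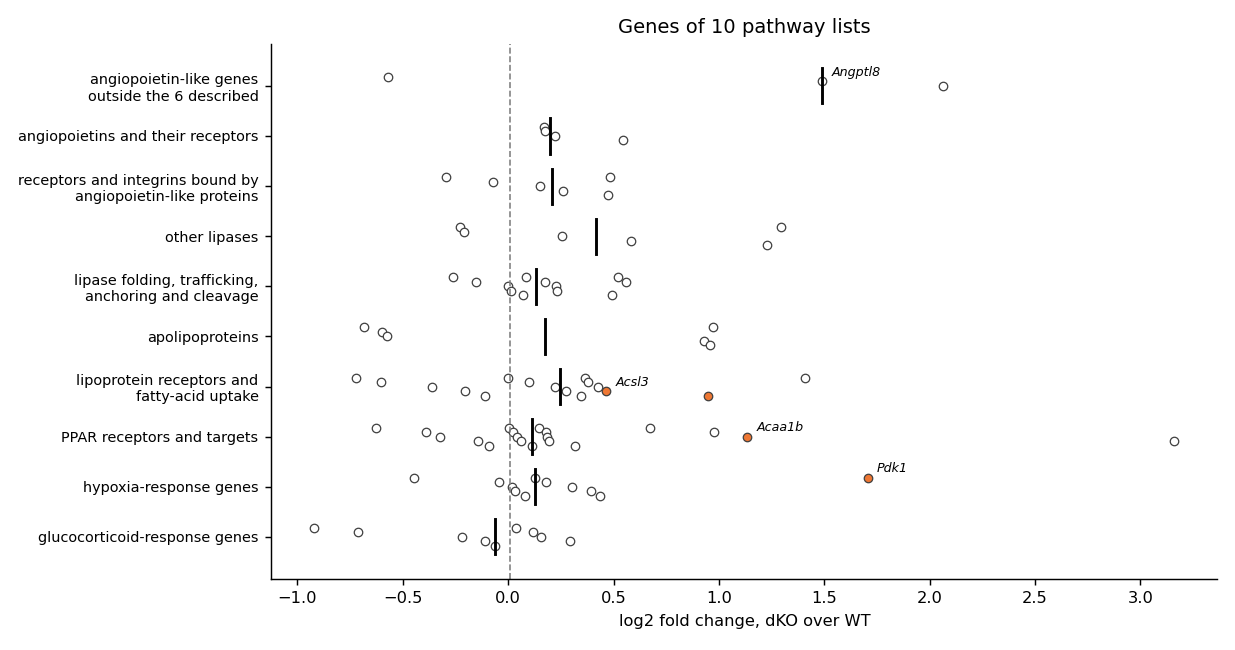
Log2 fold change of dKO over WT of each tested gene in 10 pathway lists (points, filled where adjusted p is under 0.05), with the median of each list (bar) and of all tested genes (dashed line). The 4 filled points, Acsl3, Acaa1b and Pdk1 among them, are all on the side of higher dKO, and Angptl8 lies at 1.49.

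Markers of cell types that make the lipase were set beside it. The 9 adipocyte markers, Adipoq, Plin1, Cidec and others, summed to 6.84 to 165 CPM in WT and 37.4 to 57.6 CPM in dKO, and 0 of 8 tested passed in either direction, with 7 of the 8 negative and a median log2 fold change of -0.92. Adipocyte RNA was lowest in WT replicate 3, with Adipoq at 0.276 CPM, Cidec at 0.345 CPM and Ucp1 at 0, and Lpl was highest in that library at 1639 CPM. In WT replicates 1, 2 and 4 the adipocyte markers summed to 47.3, 94.6 and 165 CPM, with Lpl at 1175, 1493 and 1563 CPM. In dKO replicates 1 to 4 they summed to 37.7, 54.0, 57.6 and 37.4 CPM, with Lpl at 276, 661, 585 and 583 CPM. The 5 striated muscle markers summed to at most 0.557 CPM in any library. Markers of the proximal tubule, the bulk of the cortex, summed to 12629 to 14133 CPM in WT and 9421 to 13001 CPM in dKO, with 0 of 6 past the threshold. Fibroblast markers summed to 224 to 351 CPM in WT and 243 to 366 CPM in dKO, and smooth muscle and pericyte markers to 101 to 127 CPM and 111 to 239 CPM, with 0 past the threshold in either list. Macrophage markers, another source of the lipase, summed to 101 to 118 CPM and 103 to 111 CPM. The 7 intercalated-cell markers summed to 264 to 319 CPM in WT, to 7.65 to 15 CPM in dKO replicates 1 to 3 and to 405 CPM in the library labelled dKO replicate 4, in which Angptl7 (23.3 CPM) and Lpl (583 CPM) lay below every WT library. Principal-cell markers summed to 476 to 587 CPM in WT and 609 to 1596 CPM in dKO, thick ascending limb markers to 3766 to 4190.4 CPM and 4378 to 5196 CPM, podocyte markers to 349 to 430.3 CPM and 417 to 679.7 CPM, and urothelial markers to 17.3 to 19.3 CPM and 16 to 49.2 CPM. In each of these lists the highest dKO sum was that of dKO replicate 1. Replicates 2 to 4 summed to 609, 693 and 706 CPM for principal-cell and 4378, 4971 and 4708 CPM for thick ascending limb markers. For podocyte markers they summed to 417, 454 and 444 CPM, and for urothelial markers to 18.3, 23.1 and 16 CPM. The highest smooth muscle and pericyte sum and the lowest proximal tubule sum also came from dKO replicate 1. No marker in the 13 lists was past the threshold with all libraries. Without dKO replicate 1, 1 proximal tubule, 1 thick ascending limb and 1 principal-cell marker were higher. Of the 7 intercalated-cell markers, 6 were lower without the library labelled replicate 4 and all 7 without both. The part of the marker differences in the levels of Lpl and Angptl7 was not tested.

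**Figure D5:**
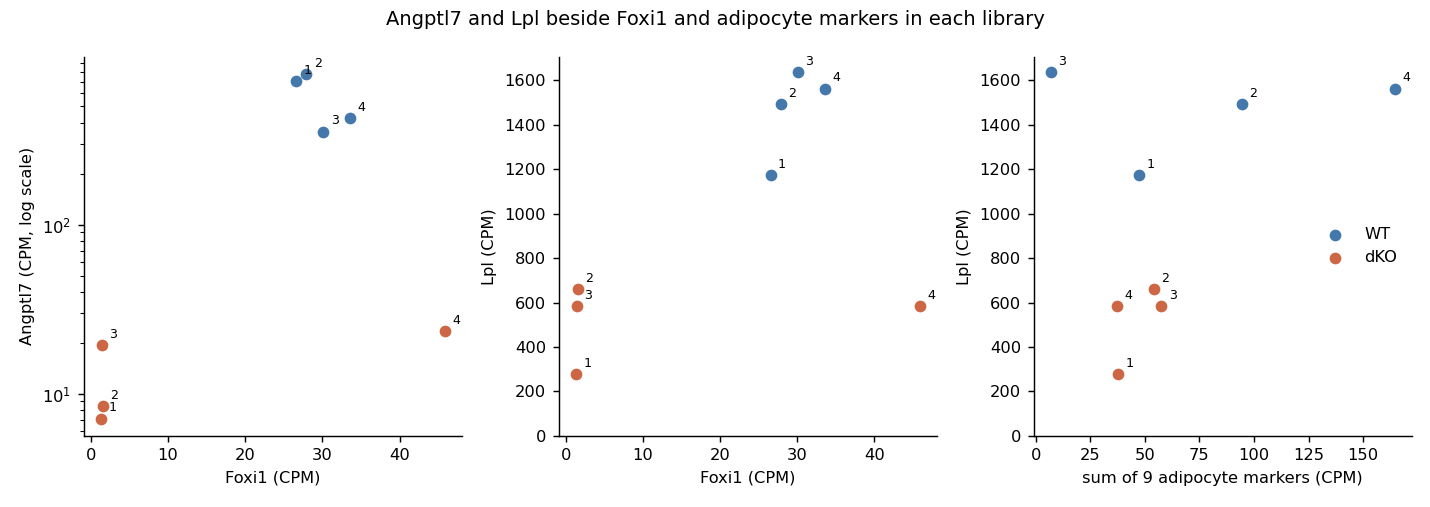
Angptl7 (log scale) and Lpl against Foxi1, and Lpl against the sum of 9 adipocyte markers, all in CPM, with a point for each library numbered by its replicate. The library labelled dKO replicate 4 has the highest Foxi1 (45.9 CPM) with Angptl7 at 23.3 and Lpl at 583 CPM. WT replicate 3 has the fewest adipocyte reads with the highest Lpl, and WT replicate 4 has the most, with Lpl at 1563 CPM.

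Positions are as deposited, and identifiers were those of the GRCm38 annotation. Of the 6 genes, 3 overlap a gene on the opposite strand, and whether the counting used strand is not given. Angptl7 lies wholly inside Mtor, the kinase held in check by the TSC complex, without sharing exon bases with it, and Mtor read 303 ± 87.2 CPM in WT and 317 ± 104 CPM in dKO (SD, n = 4 each), a log2 fold change of 0.06 (SE 0.28) whose sign depends on the libraries kept. Angptl2 lies inside Ralgps1, a Ral exchange factor, again with 0 shared exon bases, and Ralgps1 had -0.23 (SE 0.14). Angptl6 shares 265 of its 1582 exon bases with A230050P20Rik, which had 0.28 (SE 0.12), so reads of the shared stretch could come from either gene unless strand was used. Within 1 Mb of Angptl7, 2 of 37 tested genes were past the threshold, among them Mad2l2 (log2 fold change -0.83). Within 1 Mb of Lpl it was 1 of 24, Slc18a1 (-1.35). No gene near Angptl2 (0 of 40), Angptl4 (0 of 69) or Gpihbp1 (0 of 61) passed. Angptl2 lies 4.57 Mb from the engineered gene Tsc1 on chromosome 2, where 4.68% of 1219 tested genes passed, beside 2.28% of all tested genes. Gpihbp1 lies on chromosome 15, 24.0 Mb from Aqp2.

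The genes most like each of the 6 over the 8 libraries were taken by Pearson's r of log2(CPM + 0.5), as a description over libraries that share the difference between the groups. Those most like Angptl7 were 4930502E18Rik (r = 0.99), Ntng1 (0.99), Gm43031 (0.99), Fbln7 (0.98) and 2810029C07Rik (0.98), all lower in dKO with log2 fold changes of -2.74, -2.61, -0.67, -1.45 and -0.80. Ntng1 encodes a netrin-like adhesion protein of neurons and Fbln7 a secreted fibulin. Fbln7 read 24.9 to 33.8 CPM in WT and 9.99 to 11.7 CPM in dKO. Those most like Lpl were Acad10 (r = 0.99), an acyl-CoA dehydrogenase, Adh1 (0.99), an alcohol dehydrogenase, and Ttc39c (0.99), with log2 fold changes of -0.72, -1.39 and -1.14. Adh1 read 643 to 767 CPM in WT and 123 CPM in dKO replicate 1 with 316, 327 and 321 CPM in dKO replicates 2 to 4, with replicate 1 lowest and the other 3 level, as for Lpl. Gpihbp1 was most like Plin5 (r = 0.98), a lipid-droplet protein, Txnl1 (0.98) and Haao (0.98). Angptl4 was most like Hook2 (0.97), Cdc45 (0.97) and D030055H07Rik (0.97), Angptl2 most like Mfn2 (0.98), Tspan15 (0.98) and 4930461G14Rik (0.97), and Angptl6 most like Vamp5 (0.99), Ndufaf1 (0.96) and the water channel Aqp3 (0.95).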

How the data were processed

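Poly(A) RNA of whole kidneys was used, in 4 libraries labelled WT and 4 labelled dKO. Per the labels, the authors used HISAT2 2.0.4 for alignment and HTSeq 0.9.1 for the counts per gene. The genome build was not given in the sources used here. The raw counts and the FPKM (per gene length, scaled by the authors per library) are in 1 deposited table. Its 8 signal columns, 1 for each library, were not used, nor were the authors' fold changes and p-values, which hold their own comparison. In 23 entries a symbol turned into a date was recovered by identifier.

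Counts were filtered with filterByExpr (minimum count 10, minimum total 15), scaled by TMM and compared by the robust quasi-likelihood test of edgeR 4.0.16 in R 4.3.3, two-sided, adjusted by Benjamini-Hochberg over 15912 genes at a threshold of 0.05. At an unadjusted p under 0.05 there were 2667 genes. SE is the size of the fold change divided by the square root of F. No covariate was used, as no batch, litter or sex is labelled. The procedure was tested on simulated data. Floors cover counting error only.

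Alternatives were RLE factors, DESeq2 1.42.0, limma-voom (limma 3.58.1), non-robust estimation, no filter, at least 1 CPM in 4 libraries, limma on log2 of deposited FPKM plus 1 or 0.1 (mean FPKM of at least 0.1), each library left out, and dKO replicates 1 and 4 left out together.

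The 6 genes, the 10 pathway lists, the 13 marker lists and the tests were chosen with earlier results of these data known. Named genes were the 6, Foxi1, Tsc1, Kit and Xist as checks, all angiopoietin-like and angiopoietin genes, genes overlapping one of the 6, up to 4 genes past the threshold from each other list or, with none, the 2 highest by FPKM, up to 3 markers per list by FPKM, and the most alike genes (5 for Angptl7, 3 for each other). Cd36, Adipoq, Lmf1, Pcsk6, Fkbp5, Per1, Ucp1, Mad2l2 and Slc18a1 were named after their values were seen, as were Pecam1, Cdh5, Kdr and Plin1 as examples of their lists. Of the listed symbols, Lilrb4b, Apoc2, Apoa5 and Myh4 were not analysed here. A few of the listed genes are not reported here. They were kept in the fits and in the counts.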

Additional observations from a re-analysis of the deposited data

Results flagged for a closer look

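In 6 of 48 groups of 4 libraries that were checked for a single far sample by Dixon's ratio, 1 library stood apart. Chance alone gives about 1 in 20 for independent groups. These groups are genes read in the same libraries, and Foxi1, Kit and Xist were included as checks of the labels. No excess over chance can be read from the count. Among the described genes, Angptl6 in dKO was at 0.751 CPM in replicate 2, below the other 3 libraries, on 13 reads. Angptl8 (3.98 CPM) was far above the rest of the dKO group in replicate 1, the library that also stood apart by Xist (490.4 CPM). Foxi1 (45.9 CPM) and Kit (25.6 CPM) were far above the rest of the dKO group in the library labelled replicate 4. Pdk1 was below the other WT libraries in WT replicate 2, at 12.4 CPM. Of the 6, 2 were in dKO replicate 1 and 2 in the library labelled dKO replicate 4. Angptl7, Lpl, Angptl2, Angptl4 and Gpihbp1 gave none.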

How the results depend on the processing

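The 6 described genes kept the sign of their log2 fold change in all 17 alternatives, with Angptl7 at -5.59 to -5.05 and Lpl at -1.61 to -1.23 (-1.61 to -1.27 with single libraries left out). These genes were chosen with this contrast known, so the ranges describe the same values and give no independent support. Over all genes, 184 were higher and 179 lower; DESeq2 called 513 and 458, FPKM plus 0.1 and plus 1 called 120 and 106 higher, single libraries left out gave 57 to 303 higher and 78 to 325 lower, and 289 were lower without dKO replicates 1 and 4. The 4 higher and 0 lower genes of the pathway lists became 14 and 1 with DESeq2, 2 and 1 higher with FPKM plus 0.1 and plus 1, 1 to 7 higher and 0 to 1 lower with single libraries left out, and 9 and 1 without dKO replicates 1 and 4. Signs turned for values near 0: Tsc1 from 0.03 (-0.0789 to 0.147) and Mtor from 0.06 (-0.0951 to 0.243) with single libraries left out, Tsc1 to -0.0242 without dKO replicates 1 and 4, and Tek from 0.17 (-0.0704 to 0.314), also to -0.0365. The cause was not tested. With DESeq2, Angptl8 (adjusted p = 0.0422) and Angpt1 (adjusted p = 0.0323) passed. The Angptl6 values rest on 10 to 34 reads a library. No paired analysis was possible because no label pairs a WT library with a dKO library.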
